A study of Mus musculus with 26 samples.

Results

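Interferon-stimulated genes are the genes that cells switch on when interferons, the secreted signals of antiviral defence, bind their receptors. Type I interferons act through a factor that holds STAT2 and IRF9 and binds interferon-stimulated response elements in promoters, and type II interferon acts at gamma-activated sites. In the brain, microglia and astrocytes respond strongly, and the products sense foreign nucleic acid, block viral entry and translation, modify proteins and raise antigen presentation. The list examined held 39 mouse genes, and the level of a gene is that of 1 probe set, the brightest on average among those annotated to that gene alone. Of the 39, 37 had such a probe set and 36 were tested, of 14941 genes tested in all. Isg15 was read only by a probe set shared with another gene and Ifi44 had no probe set of its own, so no value is given for either. Mx1, a dynamin-like antiviral GTPase, had a mean of 3.35 over all arrays, below the filter on low values at 4.33, and was not tested; its 26 values lay between 3.10 and 3.60.

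The arrays were Affymetrix mouse expression arrays of entorhinal cortex and hippocampus, 13 per region, and the deposited values are log2 levels made with RMA. The Tg BDNF group (n = 4 per region) were aged mice carrying an amyloid precursor protein (APP) transgene that received a lentivirus for brain-derived neurotrophic factor, a neuronal growth factor. The Tg GFP group (n = 4) were aged APP transgenic mice that received a lentivirus for green fluorescent protein, the non-Tg GFP group (n = 2) were non-transgenic mice that received the same GFP lentivirus, and the sham group (n = 3) were non-transgenic mice with a sham lesion. The injection site was the entorhinal cortex, with 4 weeks between virus and dissection, and the hippocampus had not itself been injected. The sources used here do not give the APP line, its promoter, strain, sex or exact age, nor which arrays of both regions came from 1 mouse. Because all sham mice were non-transgenic, the comparisons of transgenic groups with sham hold genotype and vector together. Array medians lay between 5.51 and 5.58. The mean of 8 hippocampal marker genes was 8.40 to 9.06 on the hippocampal arrays and 5.45 to 6.01 on the entorhinal arrays, as the region labels say. Xist, a transcript of female cells, read above 7 on all non-transgenic arrays and on 2 of 4 arrays in each transgenic group. Comparisons of transgenic with non-transgenic groups therefore also hold a difference in Xist. With the Xist level as a covariate, the limma fits within a region also called 0 members. Hippocampal sham 1 read 8.82 in choroid plexus markers, where the other hippocampal arrays read 5.99 to 6.31, and entorhinal Tg BDNF 3 and non-Tg GFP 2 read 7.39 and 7.67 in myelin markers, where the other entorhinal arrays read at least 8.43. In bulk tissue, fewer cells of a type and less RNA per cell cannot be told apart, and levels are not compared between genes, since probe sets differ in brightness.

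The promoters of the members show which of them carry the DNA words of the pathway. RefSeq windows of 250 bases before and 50 after the start (GRCm38.p6) were found for 30 of the 39 genes and searched on both strands for the core of the response element, GAAA, any 2 bases and GAAA again, which reads TTTC, any 2 bases and TTTC on the other strand. It occurred in 14 of 30 members (46.7%), against 1079 of 27025 genes (3.99%). The gamma-activated word TTCNNNGAA occurred in 10 of 30 members (33.3%), against 9.55% of genes, and it overlapped the first word in Bst2 and Ifitm3. All 4 interferon-inducible GTPases with a window held the response-element core, as did Ifit1, Ifit3, Oas1a, Ifih1, Eif2ak2, Isg15, Stat2, Bst2, Rsad2 and Ifitm3. None of the 5 remaining induced genes with a window, such as Ifi35 and Lgals3bp, held it. A match describes letters in a window and not a site in use. The sequences of 5 members described in detail below are shown, with the response-element core, on either strand, in capitals: the 250 bases before the start of Ifit1 (chr19:34640639-34640888, plus strand), Ifit3 (chr19:34583279-34583528, plus strand) and Igtp (chr11:58199306-58199555, plus strand), and 30 bases around the match of Ifih1 (chr2:62646206-62646235, minus strand) and Ifitm3 (chr7:141010714-141010743, minus strand), where the match lies just past the annotated start.
Ifit1: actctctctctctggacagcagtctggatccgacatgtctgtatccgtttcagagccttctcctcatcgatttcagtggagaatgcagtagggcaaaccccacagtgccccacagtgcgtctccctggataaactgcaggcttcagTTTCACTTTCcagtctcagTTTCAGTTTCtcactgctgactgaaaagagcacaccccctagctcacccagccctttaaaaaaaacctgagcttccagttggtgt
Ifit3: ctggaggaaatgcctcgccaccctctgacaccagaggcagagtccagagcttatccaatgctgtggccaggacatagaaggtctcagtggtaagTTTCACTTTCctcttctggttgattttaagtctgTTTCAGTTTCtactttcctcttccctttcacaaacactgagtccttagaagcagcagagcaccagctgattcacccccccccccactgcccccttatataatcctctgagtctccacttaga
Igtp: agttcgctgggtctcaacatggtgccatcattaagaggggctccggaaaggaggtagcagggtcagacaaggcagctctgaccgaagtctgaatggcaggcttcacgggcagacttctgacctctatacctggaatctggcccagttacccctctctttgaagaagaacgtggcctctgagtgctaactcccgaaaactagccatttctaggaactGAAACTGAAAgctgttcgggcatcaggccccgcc
Ifih1: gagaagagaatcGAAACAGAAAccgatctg
Ifitm3: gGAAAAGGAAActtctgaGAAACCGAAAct
Ifit1 and Ifit3 each held the pair TTTCACTTTC and TTTCAGTTTC on the plus strand shown, so that the GAAA form lies on the minus strand. The pair began 104 and 85 bases before the start in Ifit1 and 156 and 122 bases before it in Ifit3. Igtp held a single GAAACTGAAA beginning 34 bases before its start.

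The interferon-stimulated genes moved as a block from array to array, with high and low arrays inside the same injected group. The mean log2 level of the 36 tested members in the entorhinal cortex was 7.44, 6.39, 6.25 and 6.87 on the Tg BDNF arrays, 6.76, 6.46, 6.86 and 7.77 on the Tg GFP arrays, 7.70 and 6.26 on the non-Tg GFP arrays, and 6.36, 6.53 and 6.46 on the sham arrays. The same mean in the hippocampus was 6.87, 6.54, 6.23 and 6.59 on the Tg BDNF arrays, 7.34, 7.25, 7.23 and 6.29 on the Tg GFP arrays, 7.77 and 6.76 on the non-Tg GFP arrays, and 6.57, 6.43 and 6.70 on the sham arrays. Arrays Tg BDNF 1, Tg GFP 4 and non-Tg GFP 1 stood highest in the entorhinal cortex, Tg BDNF 4 and Tg GFP 1 and 3 came next, and Tg BDNF 3 and non-Tg GFP 2 lay below all 3 sham arrays. In the hippocampus, Tg GFP 1 to 3 and non-Tg GFP 1 were high, Tg GFP 4 lay below all 3 sham arrays, and Tg BDNF 1 was the only Tg BDNF array above them.

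**Figure D1:**
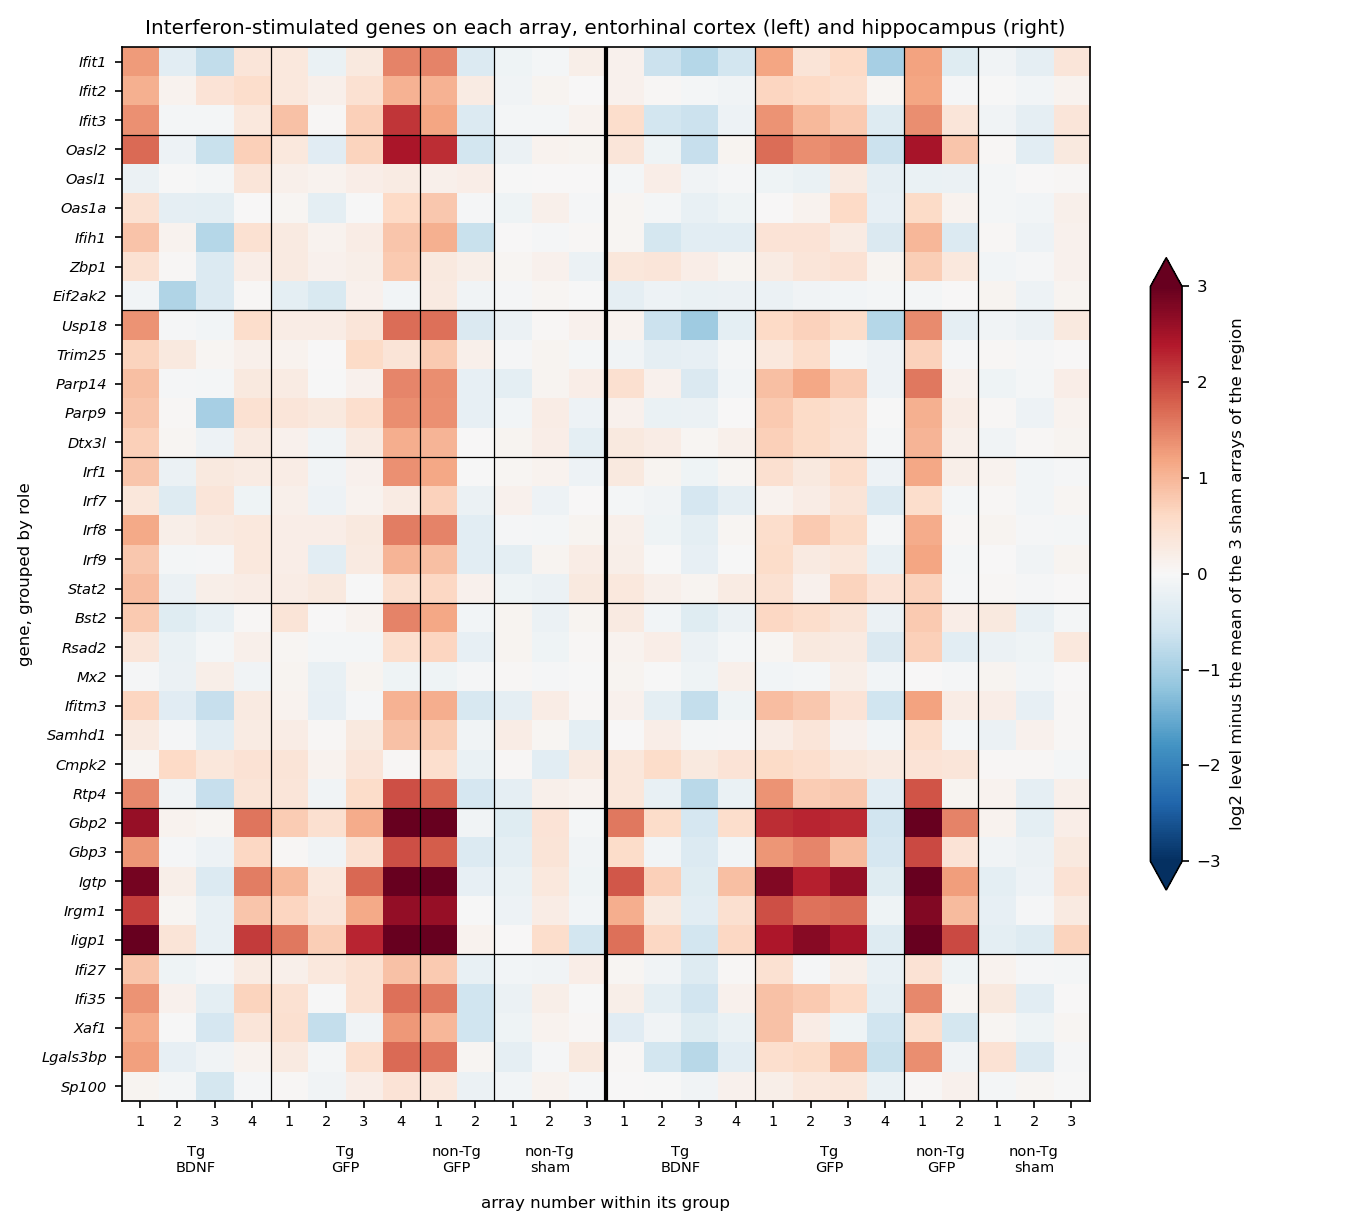
Each row is a tested interferon-stimulated gene, grouped by role, and each column an array; colour gives the log2 level minus the mean of the 3 sham arrays of the same region, clipped at 3 either way. Red columns are the arrays on which most members are high, such as Tg GFP 4 and non-Tg GFP 1 in the entorhinal cortex, and the rows of the GTPases Iigp1, Igtp, Gbp2 and Irgm1 and of Oasl2 have the largest SDs over the 26 arrays.

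Counted gene by gene, 35 of 36 members lay above all 3 sham arrays on entorhinal array non-Tg GFP 1, where 28.9% of all genes did. The count was 33 on entorhinal Tg GFP 4 (31.7% of all genes), 31 on Tg BDNF 1 (36% of all genes), 4 on non-Tg GFP 2 (27.3%) and 5 on Tg BDNF 2 (37.9%). In the hippocampus the counts were 32 on non-Tg GFP 1 (24.3%), 31, 30 and 32 on Tg GFP 1, 2 and 3 (40.3%, 25.9% and 26.6%), 2 on Tg GFP 4 (28.2%) and 3 on Tg BDNF 3 (22.4%). In all, 11 of 20 injected arrays had over 50% of the members above the sham range, 6 of 10 in the entorhinal cortex and 5 of 10 in the hippocampus. On hippocampal Tg BDNF 3 and Tg GFP 4, 29 and 24 members lay below all sham arrays, where 30% and 27.6% of all genes did.

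Within a group the members also ranked the arrays alike. On the array with the highest mean of the other members, 14 members were themselves highest in all 6 injected groups and 12 in 5 of 6, 26 of 36 together. Of all genes, 4.71% were highest on those arrays in 5 or 6 of the 6 groups, but the arrays are set by the members' own mean, so this is a description. Oasl1, an oligoadenylate synthetase-like gene, Eif2ak2, which encodes the RNA-activated kinase PKR, and Mx2, a dynamin-like GTPase, matched in 1 group each. Trim25, the ubiquitin ligase of the RNA sensor RIG-I, Cmpk2, a mitochondrial nucleotide kinase, and Sp100, a nuclear body protein, matched in 3 each.

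The median member spread more between the arrays of each group, sham included, than the median gene. The median SD of the members between arrays was 0.453 in entorhinal Tg BDNF, 0.558 in Tg GFP, 0.999 in non-Tg GFP and 0.163 in sham, where the median over all genes was 0.152, 0.116, 0.0996 and 0.0944. In the hippocampus it was 0.204, 0.359, 0.717 and 0.138 in the same group order, against 0.0926, 0.146, 0.0945 and 0.0906 over all genes. The sham groups had the lowest median SD in each region, and non-Tg GFP, with 2 arrays, the highest. Over all 26 arrays, the SD of Iigp1 (1.51) exceeded that of 99.8% of the genes tested, that of Igtp (1.34) 99.7% and that of Gbp2 (1.23) 99.6%, while that of Mx2 (0.11) exceeded 11.7%.

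**Figure D2:**
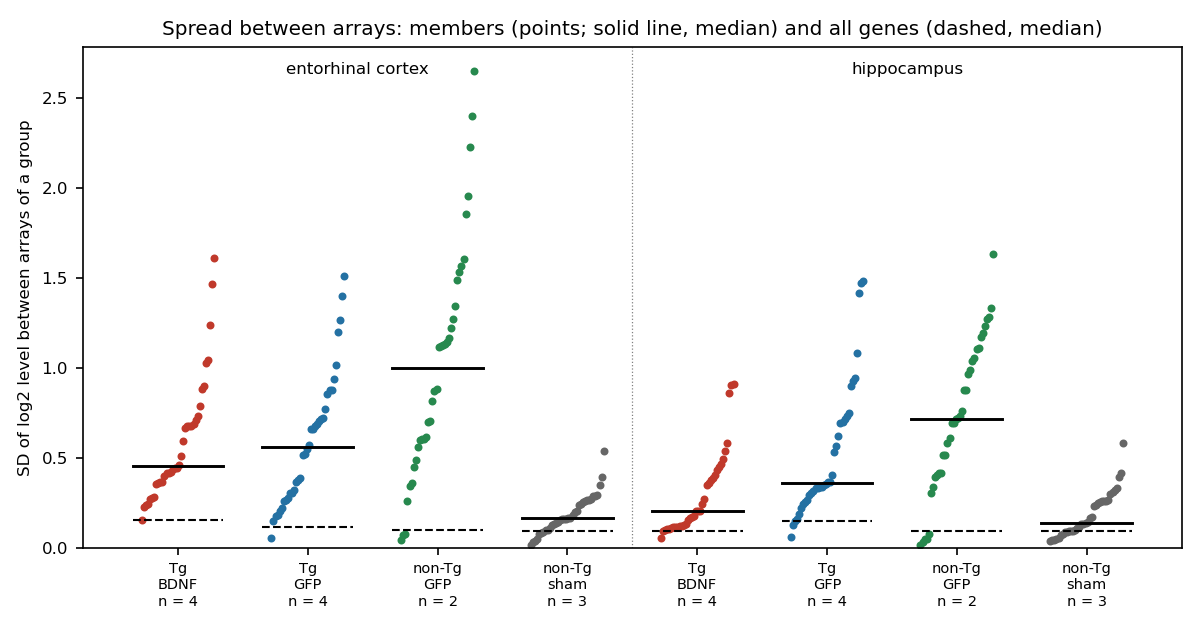
Points are the SDs of the 36 tested members between the arrays of a group, in log2 units, sorted within each group; solid lines are their medians and dashed lines the medians over all 14941 genes. The members' median lies furthest above the dashed line in non-Tg GFP (0.999 and 0.717) and nearest to it in sham (0.163 and 0.138).

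The interferon-inducible GTPases, which attack the membranes around intracellular pathogens, had the widest range. Iigp1 in the entorhinal cortex read 9.34, 6.41, 5.81 and 8.13 on the Tg BDNF arrays, 7.61, 6.75, 8.31 and 10.30 on the Tg GFP arrays, 9.88 and 6.13 on the non-Tg GFP arrays, and 6.03, 6.56 and 5.48 on the sham arrays. Iigp1 in the hippocampus read 7.47, 6.43, 5.26 and 6.43 on the Tg BDNF arrays, 8.23, 8.54, 8.28 and 5.43 on the Tg GFP arrays, 9.68 and 7.80 on the non-Tg GFP arrays, and 5.53, 5.44 and 6.48 on the sham arrays. The highest and lowest of these 26 values lie 5.03 apart, and the 4 entorhinal Tg GFP arrays and both hippocampal non-Tg GFP arrays lay above all sham arrays of their region, while the other 4 injected groups overlapped sham. Igtp, a member of the same family, read 10.07, 7.37, 6.79 and 8.74 on the Tg BDNF arrays, 8.17, 7.52, 8.92 and 10.76 on the Tg GFP arrays, 10.35 and 6.96 on the non-Tg GFP arrays, and 7.01, 7.53 and 7.07 on the sham arrays in the entorhinal cortex. In the hippocampus it read 8.94, 7.80, 6.72 and 7.98 on the Tg BDNF arrays, 9.86, 9.41, 9.72 and 6.72 on the Tg GFP arrays, 10.65 and 8.34 on the non-Tg GFP arrays, and 6.78, 6.94 and 7.52 on the sham arrays. Tg GFP 4 was the highest entorhinal array and the lowest hippocampal one, and arrays of that number are not known to share a mouse. The other 3 GTPases, Gbp2, Gbp3 and Irgm1, followed the same arrays, with Gbp2 between 6.15 and 10.33 over all arrays.

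The IFIT genes encode proteins that bind foreign RNA and hold back its translation. Ifit1 in the entorhinal cortex read 6.82, 5.23, 4.80 and 5.90 on the Tg BDNF arrays, 5.87, 5.35, 5.84 and 7.04 on the Tg GFP arrays, 7.03 and 5.13 on the non-Tg GFP arrays, and 5.41, 5.49 and 5.73 on the sham arrays. In the hippocampus Ifit1 read 5.99, 5.21, 4.99 and 5.30 on the Tg BDNF arrays, 7.03, 6.22, 6.45 and 4.85 on the Tg GFP arrays, 7.04 and 5.47 on the non-Tg GFP arrays, and 5.75, 5.59 and 6.21 on the sham arrays. No injected group was clear of sham in Ifit1. Ifit3 read 8.53, 7.10, 7.09 and 7.48 on the Tg BDNF arrays, 8.04, 7.19, 7.88 and 9.29 on the Tg GFP arrays, 8.35 and 6.76 on the non-Tg GFP arrays, and 7.10, 7.10 and 7.27 on the sham arrays in the entorhinal cortex. Hippocampal levels were 7.86, 6.77, 6.69 and 7.16 on the Tg BDNF arrays, 8.66, 8.29, 8.11 and 6.93 on the Tg GFP arrays, 8.71 and 7.69 on the non-Tg GFP arrays, and 7.22, 7.06 and 7.69 on the sham arrays. Hippocampal Tg GFP 1 to 3 lay above all sham values of Ifit3, and Tg GFP 4 lay below them. Ifit2, of the same family, was the single member whose 10 injected entorhinal arrays all lay above all 3 sham arrays, where 0.991% of all genes did. Its entorhinal levels were 8.30, 7.36, 7.66 and 7.76 on the Tg BDNF arrays, 7.56, 7.40, 7.69 and 8.29 on the Tg GFP arrays, 8.29 and 7.50 on the non-Tg GFP arrays, and 7.15, 7.32 and 7.26 on the sham arrays.

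Among the sensors and the OAS family, Oasl2, an interferon-induced OAS-like gene, varied most. Oasl2 in the entorhinal cortex read 7.77, 5.91, 5.39 and 6.79 on the Tg BDNF arrays, 6.38, 5.71, 6.73 and 8.51 on the Tg GFP arrays, 8.27 and 5.50 on the non-Tg GFP arrays, and 5.88, 6.17 and 6.13 on the sham arrays. In the hippocampus it read 6.59, 6.11, 5.54 and 6.31 on the Tg BDNF arrays, 7.90, 7.62, 7.70 and 5.58 on the Tg GFP arrays, 8.71 and 7.06 on the non-Tg GFP arrays, and 6.27, 5.90 and 6.51 on the sham arrays. Hippocampal Tg GFP arrays 1 to 3 lay over 1 log2 unit above the highest sham array, and array 4 lay below the lowest. Ifih1 encodes MDA5, a sensor of long double-stranded RNA. Its entorhinal levels were 7.17, 6.41, 5.46 and 6.78 on the Tg BDNF arrays, 6.59, 6.42, 6.53 and 7.15 on the Tg GFP arrays, 7.38 and 5.66 on the non-Tg GFP arrays, and 6.33, 6.27 and 6.34 on the sham arrays. Its hippocampal levels were 6.36, 5.78, 5.97 and 5.98 on the Tg BDNF arrays, 6.71, 6.71, 6.55 and 5.87 on the Tg GFP arrays, 7.28 and 5.88 on the non-Tg GFP arrays, and 6.32, 6.15 and 6.41 on the sham arrays. The 4 entorhinal Tg GFP values of Ifih1 lay above sham, and the other injected groups overlapped sham.

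Usp18 removes ISG15 from proteins and dampens signalling at the type I receptor, and Parp14 adds ADP-ribose to proteins. Usp18 read 6.45, 5.07, 5.03 and 5.63 on the Tg BDNF arrays, 5.33, 5.33, 5.46 and 6.78 on the Tg GFP arrays, 6.77 and 4.66 on the non-Tg GFP arrays, and 4.93, 5.14 and 5.24 on the sham arrays in the entorhinal cortex. Hippocampal levels were 5.59, 4.86, 4.43 and 5.20 on the Tg BDNF arrays, 6.08, 6.18, 6.04 and 4.64 on the Tg GFP arrays, 6.92 and 5.23 on the non-Tg GFP arrays, and 5.38, 5.31 and 5.79 on the sham arrays. All 4 entorhinal Tg GFP arrays were above sham, and no other injected group was clear of sham. Parp14 in the entorhinal cortex read 6.27, 5.33, 5.32 and 5.66 on the Tg BDNF arrays, 5.62, 5.36, 5.50 and 6.85 on the Tg GFP arrays, 6.76 and 5.12 on the non-Tg GFP arrays, and 5.09, 5.46 and 5.57 on the sham arrays. In the hippocampus Parp14 read 5.60, 5.24, 4.67 and 5.03 on the Tg BDNF arrays, 6.0, 6.26, 5.88 and 4.96 on the Tg GFP arrays, 6.70 and 5.23 on the non-Tg GFP arrays, and 4.98, 5.04 and 5.30 on the sham arrays. Hippocampal Tg GFP 1 to 3 and non-Tg GFP 1 were the hippocampal arrays over 0.5 above the highest sham value of Parp14.

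Of the transcription factors, Irf8 is a factor of microglia and macrophages and Irf1 an early target of type II interferon. Irf8 read 7.36, 6.42, 6.50 and 6.54 on the Tg BDNF arrays, 6.44, 6.42, 6.53 and 7.78 on the Tg GFP arrays, 7.71 and 5.91 on the non-Tg GFP arrays, and 6.20, 6.18 and 6.32 on the sham arrays in the entorhinal cortex. Its hippocampal levels were 6.84, 6.55, 6.38 and 6.74 on the Tg BDNF arrays, 7.21, 7.46, 7.26 and 6.62 on the Tg GFP arrays, 7.79 and 6.72 on the non-Tg GFP arrays, and 6.77, 6.64 and 6.63 on the sham arrays. Both entorhinal transgenic groups lay wholly above sham, most arrays by less than 0.5, and the hippocampal groups overlapped. Irf1 in the entorhinal cortex read 8.37, 7.35, 7.83 and 7.77 on the Tg BDNF arrays, 7.75, 7.42, 7.66 and 8.90 on the Tg GFP arrays, 8.68 and 7.53 on the non-Tg GFP arrays, and 7.58, 7.63 and 7.37 on the sham arrays. In the hippocampus Irf1 read 8.03, 7.81, 7.61 and 7.79 on the Tg BDNF arrays, 8.22, 8.04, 8.26 and 7.59 on the Tg GFP arrays, 8.89 and 7.92 on the non-Tg GFP arrays, and 7.84, 7.67 and 7.70 on the sham arrays. Both non-Tg GFP arrays of the hippocampus were above its sham arrays, and the other groups of Irf1 overlapped sham.

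Antiviral effectors act on the virus particle or its replication. Ifitm3, which blocks the fusion of viruses in endosomes, read 9.50, 8.53, 8.18 and 9.13 on the Tg BDNF arrays, 8.98, 8.63, 8.83 and 9.91 on the Tg GFP arrays, 9.96 and 8.38 on the non-Tg GFP arrays, and 8.61, 9.08 and 8.91 on the sham arrays in the entorhinal cortex. Hippocampal levels were 9.21, 8.78, 8.37 and 8.95 on the Tg BDNF arrays, 10.01, 9.89, 9.48 and 8.48 on the Tg GFP arrays, 10.29 and 9.31 on the non-Tg GFP arrays, and 9.29, 8.83 and 9.12 on the sham arrays. In both regions Tg BDNF 3 was below all sham arrays. Rtp4, an interferon-induced chaperone of membrane receptors, read 8.40, 6.86, 6.28 and 7.35 on the Tg BDNF arrays, 7.35, 6.87, 7.52 and 8.91 on the Tg GFP arrays, 8.73 and 6.46 on the non-Tg GFP arrays, and 6.70, 7.14 and 7.08 on the sham arrays in the entorhinal cortex. Its hippocampal levels were 7.23, 6.68, 6.10 and 6.71 on the Tg BDNF arrays, 8.26, 7.66, 7.71 and 6.59 on the Tg GFP arrays, 8.78 and 6.99 on the non-Tg GFP arrays, and 7.01, 6.63 and 7.06 on the sham arrays. In the entorhinal cortex Rtp4 was highest on the arrays that led for the GTPases. Of the remaining induced genes, Lgals3bp, a secreted galectin-binding glycoprotein, read 8.06, 6.58, 6.72 and 6.92 on the Tg BDNF arrays, 7.08, 6.77, 7.33 and 8.53 on the Tg GFP arrays, 8.45 and 6.87 on the non-Tg GFP arrays, and 6.55, 6.80 and 7.12 on the sham arrays in the entorhinal cortex. Hippocampal levels were 7.42, 6.81, 6.53 and 7.05 on the Tg BDNF arrays, 7.89, 7.93, 8.37 and 6.70 on the Tg GFP arrays, 8.77 and 7.27 on the non-Tg GFP arrays, and 7.80, 6.97 and 7.34 on the sham arrays. On hippocampal Tg BDNF arrays Lgals3bp lay within or below the sham range. Ifi35, an interferon-induced leucine zipper protein, read 7.76, 6.54, 6.12 and 7.08 on the Tg BDNF arrays, 6.86, 6.40, 6.86 and 8.07 on the Tg GFP arrays, 7.98 and 5.81 on the non-Tg GFP arrays, and 6.23, 6.59 and 6.39 on the sham arrays in the entorhinal cortex. In the hippocampus it read 7.12, 6.64, 6.37 and 7.06 on the Tg BDNF arrays, 7.82, 7.71, 7.53 and 6.64 on the Tg GFP arrays, 8.36 and 7.0 on the non-Tg GFP arrays, and 7.22, 6.63 and 6.95 on the sham arrays. Non-Tg GFP 2 of the entorhinal cortex held the lowest Ifi35 value of all 26 arrays.

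The other members are given by their range over the 26 arrays. Bst2, which tethers budding virions, ranged from 5.32 to 7.17, Rsad2, the antiviral enzyme viperin, from 6.38 to 7.53, and Samhd1, which breaks down deoxynucleotides, from 7.21 to 8.41. Irf7, which amplifies the type I response, ranged from 5.05 to 6.14, Irf9 from 6.31 to 7.79 and Stat2 from 5.12 to 6.23. Parp9 ranged from 5.0 to 7.39, its partner Dtx3l from 6.35 to 7.98, Zbp1 from 4.65 to 5.84 and Oas1a, a synthetase of the messenger that activates RNase L, from 6.46 to 7.56. Gbp3 ranged from 6.19 to 8.73, Irgm1 from 7.36 to 10.49, Trim25 from 6.63 to 7.86, Eif2ak2 from 4.17 to 5.33, Oasl1 from 4.52 to 5.14, Sp100 from 4.0 to 4.95 and Xaf1 from 5.84 to 7.85. Mx2, at 5.08 to 5.50, had the narrowest range of the 36.

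**Figure D3:**
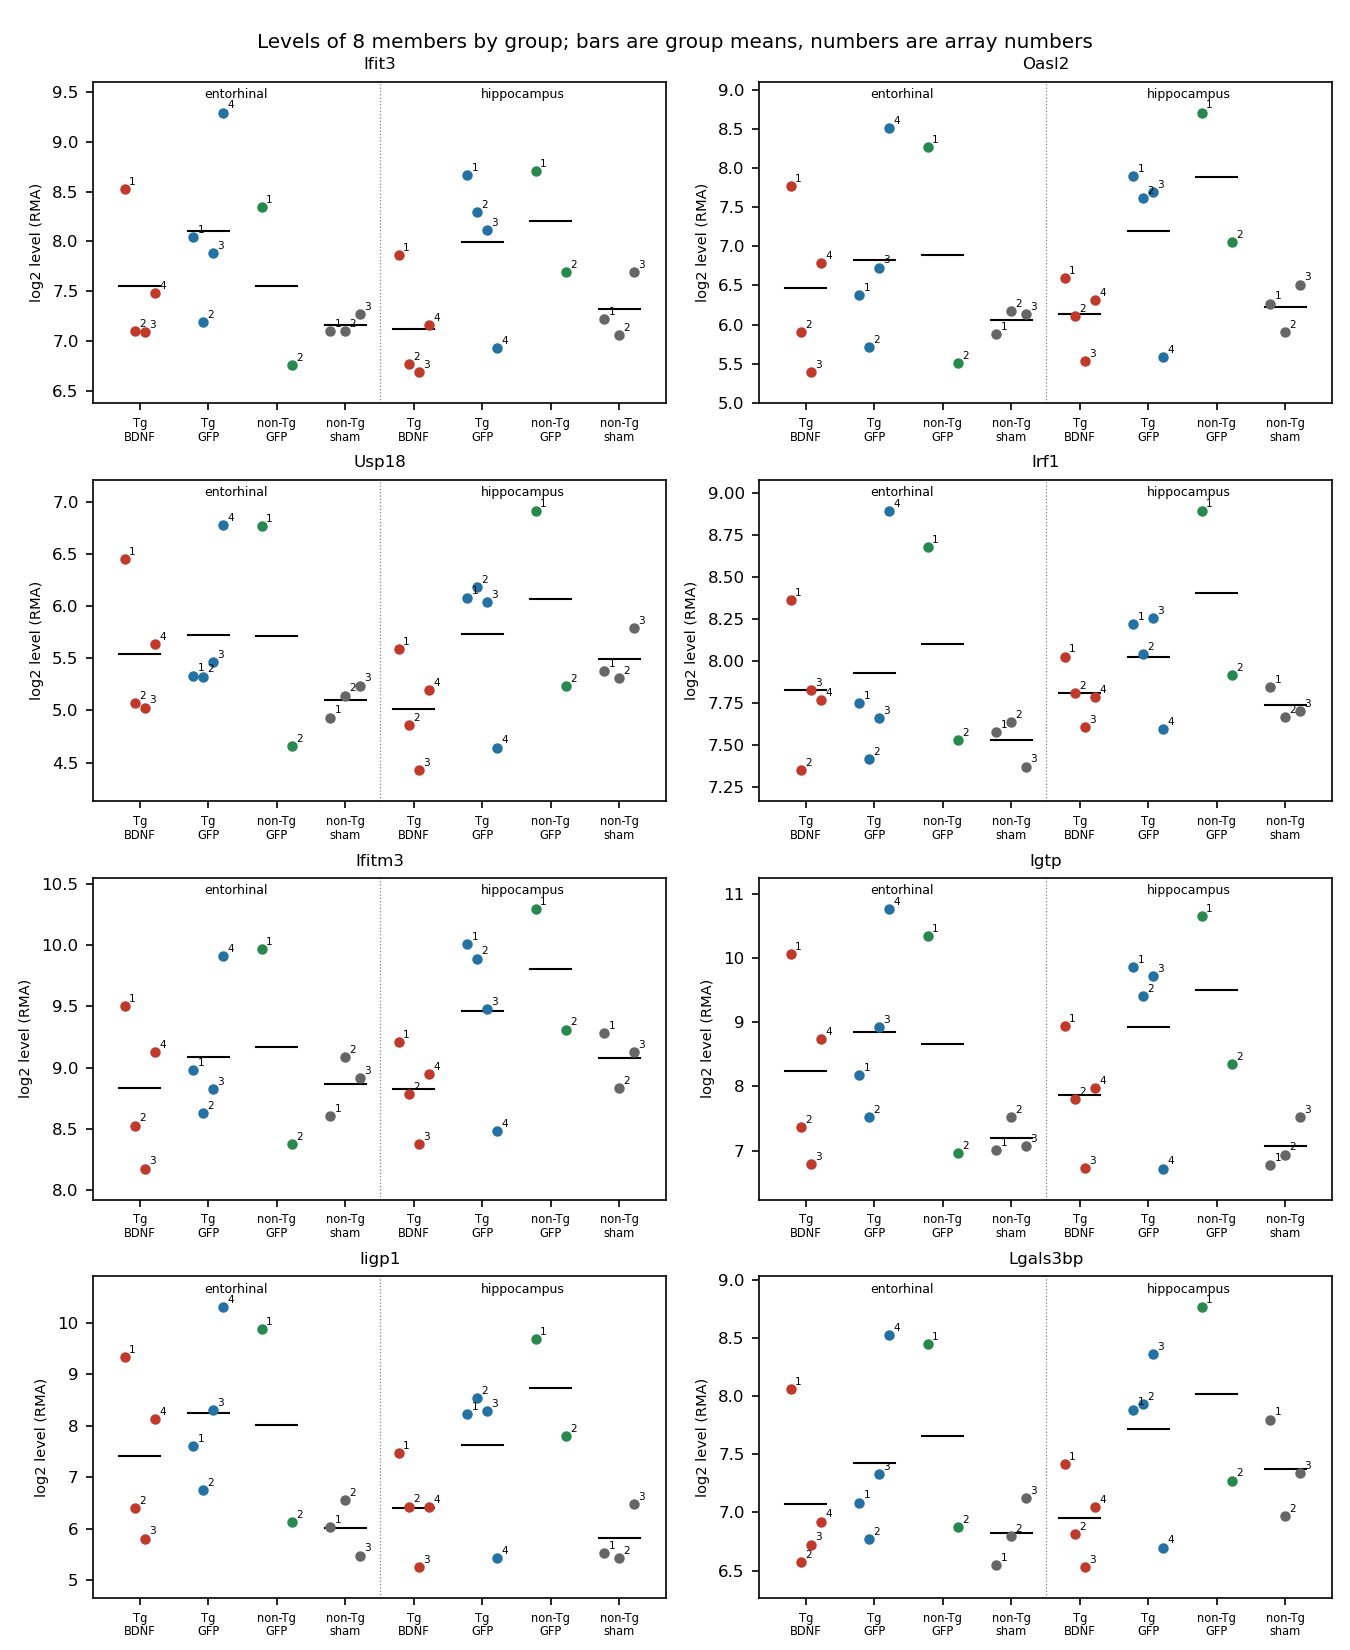
Log2 levels of 8 members on every array, by group, with entorhinal cortex left and hippocampus right in each panel; bars are group means and small numbers are array numbers. In the entorhinal cortex Tg BDNF 1, Tg GFP 4 and non-Tg GFP 1 lead their groups in all 8 panels, and in the hippocampus Tg GFP 4 lies lowest in its group.

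Against sham, the mean of the 3 vector groups was higher for most members, but no member passed the test in either region. Since the members move together on the same arrays, counts of members by direction, here and below, are not separate observations. In the entorhinal cortex 34 of 36 members had a higher mean in vector-injected than in sham mice, where 54.4% of all genes did, and the median change was 0.36, against 0.01 over all genes. The 2 arrays low in myelin markers had the lowest member means of this region, and the median was 0.40 without Tg BDNF 3 and 0.55 without non-Tg GFP 2. Without non-Tg GFP 1, the array highest in its group for most members, it was 0.16. The limma test, adjusted over 14941 genes, called 0 members and 0.0535% of all genes, and 1 member had an unadjusted p under 0.05, where 7.03% of genes did. That member was Ifit2, which averaged 7.78 ± 0.38 (SD, n = 10) over the injected arrays and 7.25 ± 0.09 (n = 3) in sham, a change between group means of 0.56 ± 0.22 (SE, limma adjusted p = 0.683). The changes of Trim25 (0.35 ± 0.16, limma adjusted p = 0.700) and Iigp1 (1.86 ± 0.91, limma adjusted p = 0.709) came next by p. The 4 largest changes were those of the GTPases Iigp1, Igtp (1.38 ± 0.82), Gbp2 (1.32 ± 0.74) and Irgm1 (1.06 ± 0.60). The median over the 5 GTPases was 1.32, against 0.56 over the 3 IFIT genes, 0.43 over the 5 ISG15 and conjugation genes, 0.30 over the 5 transcription factors, 0.24 over the 7 effectors and 0.18 over the 6 OAS and sensor genes. Eif2ak2 (-0.14) and Mx2 (-0.06) were the 2 members with a lower mean.

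In the hippocampus 33 of 36 members had a higher mean in vector-injected than in sham mice, where 42.4% of all genes did, with a median of 0.30 against -0.02 over all genes. The median was 0.14 without non-Tg GFP 1, 0.44 without non-Tg GFP 2, and 0.34 without sham 1, the array high in choroid plexus markers. Limma called 0 members and 0.0736% of all genes, and 8 members had an unadjusted p under 0.05, where 10.1% of genes did. These were Cmpk2, Zbp1, Dtx3l, Stat2, Gbp2, Igtp, Irgm1 and Iigp1. Cmpk2 read 8.72, 8.93, 8.66 and 8.79 on the Tg BDNF arrays, 8.95, 8.88, 8.71 and 8.63 on the Tg GFP arrays, 8.77 and 8.73 on the non-Tg GFP arrays, and 8.40, 8.39 and 8.31 on the sham arrays, so that the 10 injected hippocampal arrays lay above the 3 sham arrays, as 0.97% of all genes did. Its change was 0.40 ± 0.08 (SE, limma adjusted p = 0.108), and without hippocampal Tg GFP 4 it was 0.42 and called (limma adjusted p = 0.042). Its second probe set gave 0.02 for the same comparison. Zbp1, a sensor of Z-form nucleic acid, had a change of 0.35 ± 0.10 (limma adjusted p = 0.297) and Iigp1 one of 1.77 ± 0.63 (limma adjusted p = 0.381). The median over the 5 GTPases was 1.48 and over the other roles 0.08 to 0.35, and Oasl1, Eif2ak2 and Xaf1, a binder of the apoptosis inhibitor XIAP, had a lower mean. The difference of this change between the regions was called for 0 members and 0% of all genes, with 0 members and 5.79% of genes at an unadjusted p under 0.05 in limma. The smallest p in that interaction belonged to Oasl1 (0.21 ± 0.14), Trim25 (0.24 ± 0.23) and Ifi27 (0.27 ± 0.29), entorhinal cortex minus hippocampus.

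Split by group, the non-Tg GFP mice, which share their genotype with sham, had the largest median change in each region and rested on 2 arrays. In the entorhinal cortex the median was 0.48, with 35 of 36 members higher (49.9% of all genes), and it was -0.19 without array 1 and 1.08 without array 2. No member was called by limma there (0.0201% of all genes), and Trim25 alone had an unadjusted p under 0.05 (2.95% of genes), with a change of 0.48 ± 0.22. Ifit2 (0.65 ± 0.30) and Iigp1 (1.98 ± 1.24) came next by p. Both arrays lay above sham in 4 members there (Ifit2, Oasl1, Trim25 and Zbp1, 9.39% of all genes) and in 12 in the hippocampus (10.1%). Both lay below sham for Mx2 in the entorhinal cortex and for Oasl1 in the hippocampus. In the hippocampus the median was 0.56, with 32 of 36 higher (38.3% of all genes), and it was 0.08 without array 1 and 1.08 without array 2. Limma called 0 members (0.0335% of all genes), and 12 had an unadjusted p under 0.05 (9% of genes), led by Zbp1 (0.53 ± 0.14, limma adjusted p = 0.373), Cmpk2 (0.38 ± 0.10, limma adjusted p = 0.384) and Iigp1 (2.92 ± 0.86, limma adjusted p = 0.428).

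For Tg GFP minus sham the medians were 0.43 in the entorhinal cortex and 0.35 in the hippocampus, with 34 and 33 of 36 members higher (54.7% and 49.4% of all genes). Without the Tg GFP 4 array of the region they were 0.18 and 0.55. The entorhinal Tg GFP 4 array was high in members, and the hippocampal array of that number, a different array, was low. In neither region did limma call a member (0.0402% and 0.0736% of all genes), with 0 and 9 members at an unadjusted p under 0.05 (6.18% and 6.97% of genes). In the entorhinal cortex 10 members had all 4 Tg GFP arrays above all sham arrays (5.85% of all genes): Gbp2, Ifih1, Ifit2, Iigp1, Irf8, Irgm1, Oasl1, Parp9, Usp18 and Zbp1. By p, Iigp1 (2.22 ± 1.04), Ifit2 (0.49 ± 0.25) and Ifit3 (0.94 ± 0.49) led there. In the hippocampus Cmpk2 and Stat2, a subunit of the type I interferon factor, had all 4 Tg GFP arrays above sham (2.88% of all genes), with changes of 0.42 ± 0.09 (limma adjusted p = 0.173) and 0.41 ± 0.15 (limma adjusted p = 0.627), and Irgm1 came next by p (1.28 ± 0.50). For Tg BDNF minus sham the medians were 0.25 in the entorhinal cortex and -0.04 in the hippocampus, with 31 and 16 of 36 members higher (56.9% and 45% of all genes). The entorhinal median was 0.04 without Tg BDNF 1, and the hippocampal one was 0.03 without Tg BDNF 3. All 4 Tg BDNF arrays lay above sham for Ifit2 and Irf8 in the entorhinal cortex (7.88% of all genes) and for Cmpk2 and Stat2 in the hippocampus (6.19%). These counts are near the shares of all genes. In the other direction, all 4 hippocampal Tg BDNF arrays lay below sham for Trim25. Limma called 0 members (0.0602% and 0.0469% of all genes), and 0 and 2 had an unadjusted p under 0.05 (11.8% and 8.81% of genes), the 2 being Cmpk2 (0.41 ± 0.09, limma adjusted p = 0.174) and Eif2ak2 (-0.19 ± 0.07, limma adjusted p = 0.457). In the hippocampus a second probe set of Eif2ak2 averaged 4.63 with Tg BDNF and 4.53 in sham, the opposite direction. That of Cmpk2 averaged 6.83 and 6.77. Zbp1 (0.24 ± 0.12) came next by p in the hippocampus. In the entorhinal cortex Ifit2 (0.53 ± 0.25), Cmpk2 (0.36 ± 0.19) and Eif2ak2 (-0.34 ± 0.20) led by p. The second Eif2ak2 probe set averaged 4.745 with Tg BDNF and 4.725 in sham there.

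The comparison of BDNF with GFP in transgenic mice asks what the growth factor does beyond the vector, and 4 arrays a group did not separate them. In the hippocampus 34 of 36 members had a lower mean with BDNF, where 54.5% of all genes did, with a median of -0.44 against -0.01 over all genes. Limma called 0 members and 0% of all genes, and 7 members had an unadjusted p under 0.05, where 5.31% of genes did: Parp9, Ifit3, Irf8, Rtp4, Oasl2, Bst2 and Ifit2. Parp9, which forms a ubiquitin ligase complex with Dtx3l, had a change of -0.51 ± 0.18 (SE, limma adjusted p = 0.901). Ifit3 averaged 7.12 ± 0.54 with BDNF and 8.0 ± 0.75 with GFP (SD, n = 4 each), a change of -0.88 ± 0.36 (limma adjusted p = 0.901). Irf8 averaged 6.63 ± 0.20 with BDNF and 7.14 ± 0.36 with GFP, a change of -0.51 ± 0.21 (limma adjusted p = 0.901). Of the GTPases, Iigp1 had a change of -1.22 ± 0.67 and Igtp one of -1.07 ± 0.69. By role the medians were -1.002 over the 5 GTPases, -0.77 over the 3 IFIT genes, -0.51 over the 5 ISG15 and conjugation genes and -0.13 over the 7 effectors. Oasl1 (0.09) and Mx2 (0.04) were the 2 members with a higher mean. For 0 members did the 4 BDNF arrays lie wholly below the 4 GFP arrays (1.54% of all genes), and Tg GFP 4 was the lowest of its group in 33 of 36, where 21.4% of all genes were. Without that array the median was -0.59, and limma still called 0 members.

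Of 36 members, 31 had a lower mean with BDNF in the entorhinal cortex, where 44.9% of all genes did, with a median of -0.18 against 0.01 over all genes. Limma called 0 members and 0% of all genes, and 0 members had an unadjusted p under 0.05, where 3.88% of genes did. Sp100 (-0.27 ± 0.15), Zbp1 (-0.27 ± 0.18) and Oasl1 (-0.15 ± 0.10) had the smallest p, each at a limma adjusted p of 0.998. For 0 members did the 4 BDNF arrays lie wholly below the 4 GFP arrays there (0.81% of all genes). The median was -0.40 without Tg BDNF 1 and 0.03 without Tg GFP 4, the 2 arrays that led their groups, and -0.05 without Tg BDNF 3, low in myelin markers. The difference of the BDNF change between the regions was called for 0 members and 0% of all genes, with 0 members and 4.03% of genes at an unadjusted p under 0.05 in limma. Oasl1 (-0.23 ± 0.15), Ifit2 (0.49 ± 0.33) and Trim25 (0.35 ± 0.24) had the smallest p in that interaction, entorhinal cortex minus hippocampus.

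**Figure D4:**
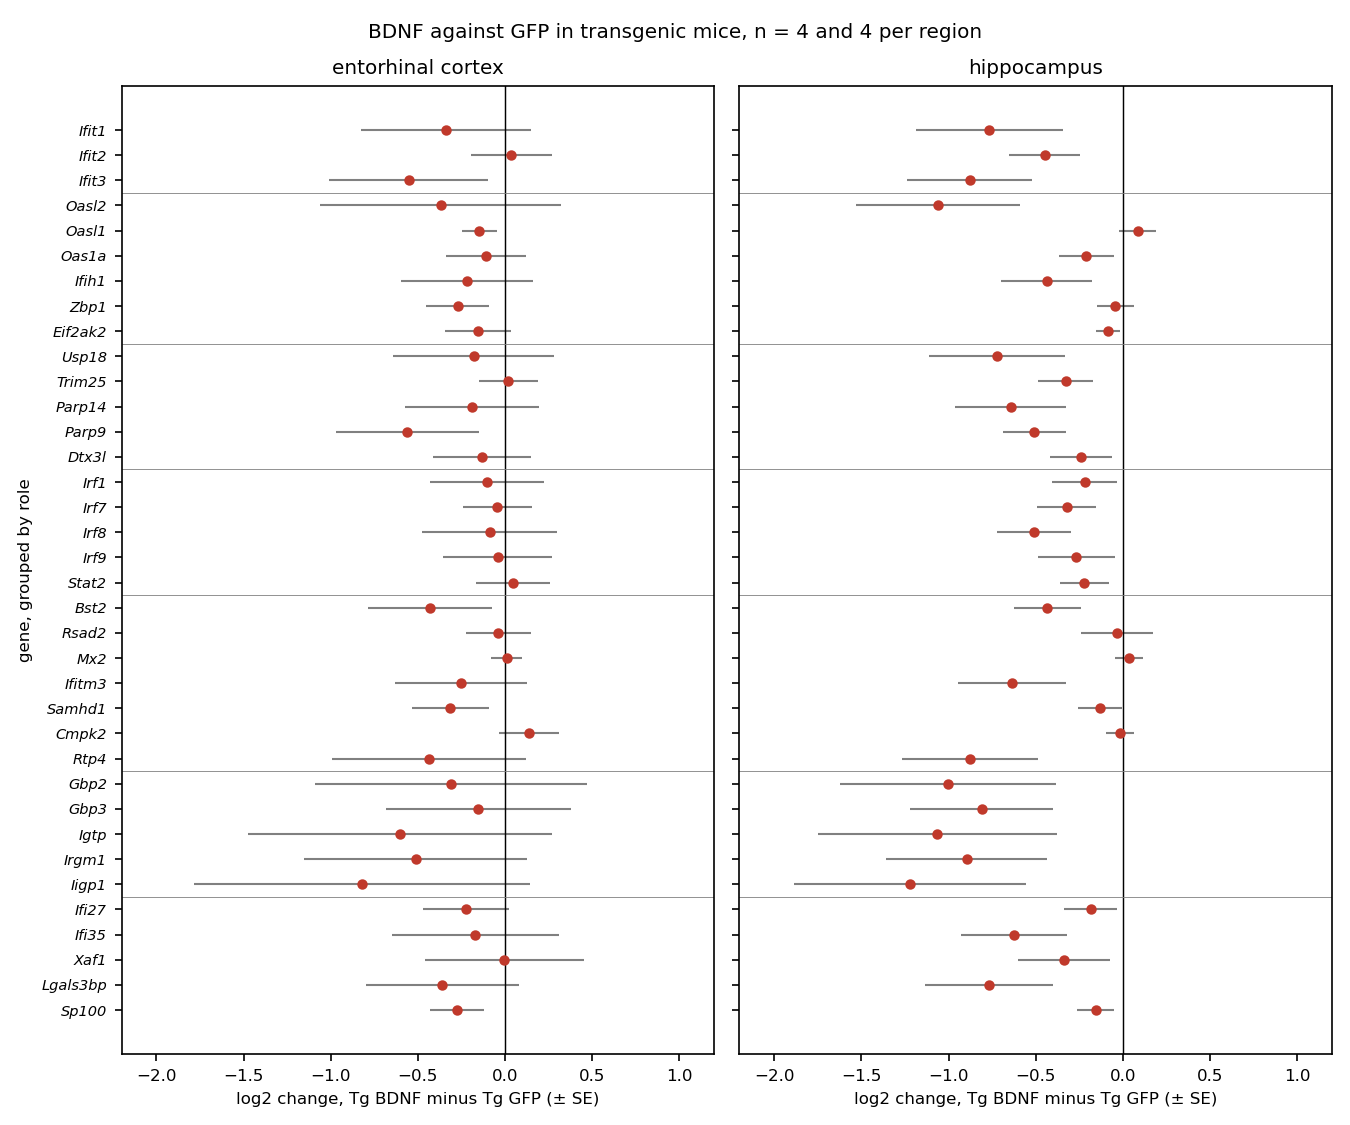
Log2 change of each tested member, Tg BDNF minus Tg GFP, with its moderated standard error, for entorhinal cortex (left) and hippocampus (right). In the hippocampus 34 of 36 points lie left of 0 and in the entorhinal cortex 31, and 0 members passed the limma test in either region.

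Tg GFP minus non-Tg GFP, which holds genotype and the difference in Xist together, gave medians of -0.03 in the entorhinal cortex and -0.18 in the hippocampus. In these, 17 and 6 of 36 members were higher (55.4% and 62.2% of all genes). With Xist as a covariate the entorhinal median was 0.26. No member was called by limma in either (0.0134% and 0.00669% of all genes), and 0 members had an unadjusted p under 0.05 in either (2.5% and 4.41% of genes). The entorhinal median was 0.65 without non-Tg GFP 1 and -0.72 without non-Tg GFP 2, and the hippocampal one 0.24 and -0.68, so the sign turned with which of the 2 non-transgenic arrays was left out. The smallest p belonged to Eif2ak2 in the entorhinal cortex (-0.26 ± 0.23), followed by Oas1a (-0.29 ± 0.28) and Trim25 (-0.21 ± 0.21), and to Zbp1 in the hippocampus (-0.24 ± 0.13), followed by Irf1 (-0.38 ± 0.23) and Iigp1 (-1.12 ± 0.81).

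Few members were called between the regions, in a comparison less precise for the median member than for the median gene. Averaged over the 4 groups, limma called 4 of 36 members between entorhinal cortex and hippocampus, where it called 51.8% of all genes. Ifit2 (0.33 ± 0.13, limma adjusted p = 0.0449) and Trim25 (0.34 ± 0.10, limma adjusted p = 0.00617) were higher in the entorhinal cortex. Cmpk2 (-0.28 ± 0.08, limma adjusted p = 0.00540) and Ifi27, an interferon-induced mitochondrial membrane protein (-0.43 ± 0.12, limma adjusted p = 0.00650), were lower there. Ifi27 in the entorhinal cortex read 9.28, 8.30, 8.40 and 8.68 on the Tg BDNF arrays, 8.60, 8.76, 8.88 and 9.31 on the Tg GFP arrays, 9.21 and 8.22 on the non-Tg GFP arrays, and 8.36, 8.32 and 8.63 on the sham arrays. Its hippocampal levels were 9.13, 8.96, 8.68 and 9.10 on the Tg BDNF arrays, 9.52, 9.03, 9.23 and 8.84 on the Tg GFP arrays, 9.50 and 8.94 on the non-Tg GFP arrays, and 9.16, 9.03 and 9.0 on the sham arrays. The ranges overlap within every injected group, and the sham arrays of the regions do not. The call of Ifit2 was lost in 16 of 33 alternative settings, with a limma adjusted p between 0.00274 and 0.254. The median SE of this comparison was 0.18 over members, against 0.06 over all genes, so few calls do not show that members differed less.

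Upstream of the members, the ligands were mostly too dim to test. Of 9 interferon ligands, 2 passed the filter (Ifna1 and Ifna2), and Ifnb1 and Ifng, the beta and gamma interferons, had means of 4.06 and 3.25 over all arrays. The 9 receptor and kinase genes had a median change of 0.02 in the hippocampus for injected minus sham, 0 of them at an unadjusted p under 0.05 in limma in either region. Ifnar1 and Ifnar2, the chains of the type I receptor, had changes of -0.03 and 0.16 in the entorhinal cortex and -0.01 and 0.12 in the hippocampus in that comparison, and Jak1, a kinase bound to the receptors, 0.11 in the entorhinal cortex. Of 4 tested STAT and IRF factors outside the list, Irf3, which starts interferon transcription, had a change of -0.26 ± 0.06 in the hippocampus (limma adjusted p = 0.188), and Irf5, a factor downstream of Toll-like receptors, -0.23 ± 0.09 (limma adjusted p = 0.426). Of 12 sensing genes, Sting1, the adaptor for cytosolic DNA, had 0.25 ± 0.10 (limma adjusted p = 0.452) and Tlr9, a receptor for DNA in endosomes, -0.17 ± 0.08 in the hippocampus. Of 6 tested genes listed as negative regulators, a role not examined here, Nlrc5 had 1.34 ± 0.46 (limma adjusted p = 0.359) and the phosphatase Ptpn6 0.11 ± 0.07 there. Of 24 tested interferon-induced genes outside the list, 19 had a higher mean in injected than in sham entorhinal cortex and 21 in the hippocampus, where 54.4% and 42.4% of all genes did. Tor3a, an interferon-induced ATPase, had a change of 0.56 ± 0.17 (limma adjusted p = 0.654) and Uba7, the enzyme that activates ISG15, -0.21 ± 0.07 (limma adjusted p = 0.677) in the entorhinal cortex. Of these 57 pathway genes limma called 0 in injected minus sham in either region, with 2 in the entorhinal cortex and 8 in the hippocampus at an unadjusted p under 0.05, where 7.03% and 10.1% of all genes were. For Tg BDNF minus Tg GFP it also called 0, with 2 in the entorhinal cortex and 6 in the hippocampus at that level, where 3.88% and 5.31% of all genes were. Between regions limma called 21 of the 57, where it called 51.8% of all genes, among them Ifnar1, 0.27 higher in the entorhinal cortex (limma adjusted p = 0.000123). The other genes called higher there were Ifngr2, Socs3, Ifitm1, Trafd1, Herc6, Irf5, Jak2 and Ifi203. Those called lower were Ly6e, Irf2, Tyk2, Myd88, Sting1, Irf3, Tlr9, Jak1, Mavs, Daxx, Uba7 and Pias1.

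Of the immune and glial markers, MHC class II genes were high on the arrays with high members. The microglia and reactive astrocyte means were also highest on these arrays within each region, over a narrower range. The monocyte and neutrophil mean was highest on them in the entorhinal cortex only. Lymphocyte and general astrocyte markers followed the members less closely or not at all. The mean of 6 of 7 listed MHC class II genes, which antigen-presenting cells use and interferon gamma induces, was 9.38, 6.58, 6.86 and 8.28 on the Tg BDNF arrays, 8.20, 7.64, 8.07 and 9.94 on the Tg GFP arrays, 9.72 and 7.27 on the non-Tg GFP arrays, and 6.57, 6.85 and 6.51 on the sham arrays in the entorhinal cortex. In the hippocampus it was 8.34, 7.25, 6.09 and 7.17 on the Tg BDNF arrays, 8.94, 9.18, 8.98 and 6.15 on the Tg GFP arrays, 9.75 and 8.59 on the non-Tg GFP arrays, and 6.22, 5.97 and 6.26 on the sham arrays. The arrays with high members, entorhinal Tg BDNF 1, Tg GFP 4 and non-Tg GFP 1 and hippocampal Tg GFP 1 to 3 and non-Tg GFP 1, were high here too, and hippocampal Tg GFP 4 was at the sham level. Of 18 listed T and B lymphocyte markers 10 were tested, and those not tested included Cd3g, Cd2, Cd8b1, Trac, Lck, Cd79b and Igkc. Their mean ranged from 5.33 to 7.44 on injected and from 5.20 to 5.34 on sham entorhinal arrays. Hippocampal means ranged from 5.26 to 6.97 on injected and from 5.08 to 5.29 on sham hippocampal arrays. Entorhinal Tg BDNF 1, high in members at 7.44, was at 5.77 in lymphocyte markers, while Tg GFP 4 and non-Tg GFP 1 were at 7.32 and 7.44. The mean of 13 of 14 microglia markers ranged from 8.04 to 8.95 on injected and from 8.23 to 8.37 on sham entorhinal arrays. It was 8.89 on entorhinal Tg BDNF 1, 8.95 on Tg GFP 4 and 8.78 on non-Tg GFP 1. On Tg BDNF 3 and non-Tg GFP 2, the entorhinal arrays lowest in members, it was 8.46 and 8.04. The microglia mean ranged from 8.19 to 8.91 on injected and from 8.36 to 8.50 on sham hippocampal arrays. It was 8.73, 8.91 and 8.635 on hippocampal Tg GFP 1 to 3, 8.23 on Tg GFP 4 and 8.87 on non-Tg GFP 1. The mean of 6 of 10 monocyte and neutrophil markers ranged from 5.55 to 6.59 on injected and from 5.70 to 5.94 on sham entorhinal arrays. It was 6.26 on entorhinal Tg BDNF 1, 6.56 on Tg GFP 4 and 6.59 on non-Tg GFP 1. On hippocampal arrays it ranged from 5.30 to 6.13 on injected and from 5.51 to 5.55 on sham hippocampal arrays. The mean of 7 of 8 reactive astrocyte markers was 8.42 on entorhinal Tg BDNF 1, 8.39 on Tg GFP 4 and 8.25 on non-Tg GFP 1, against 7.71 to 7.96 on sham. It was 8.03 on entorhinal Tg BDNF 3 and 7.73 on non-Tg GFP 2, the arrays lowest in members. On hippocampal arrays it was 8.28, 8.71 and 8.30 on Tg GFP 1 to 3, 8.01 on Tg GFP 4 and 8.45 on non-Tg GFP 1, against 7.94 to 8.15 on sham. The mean of 7 general astrocyte markers ranged from 10.79 to 10.97 on injected and from 10.97 to 11.13 on sham entorhinal arrays. It ranged from 10.69 to 10.89 on injected and from 10.83 to 10.87 on sham hippocampal arrays. The part of these cells in the members' levels was not tested.

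**Figure D5:**
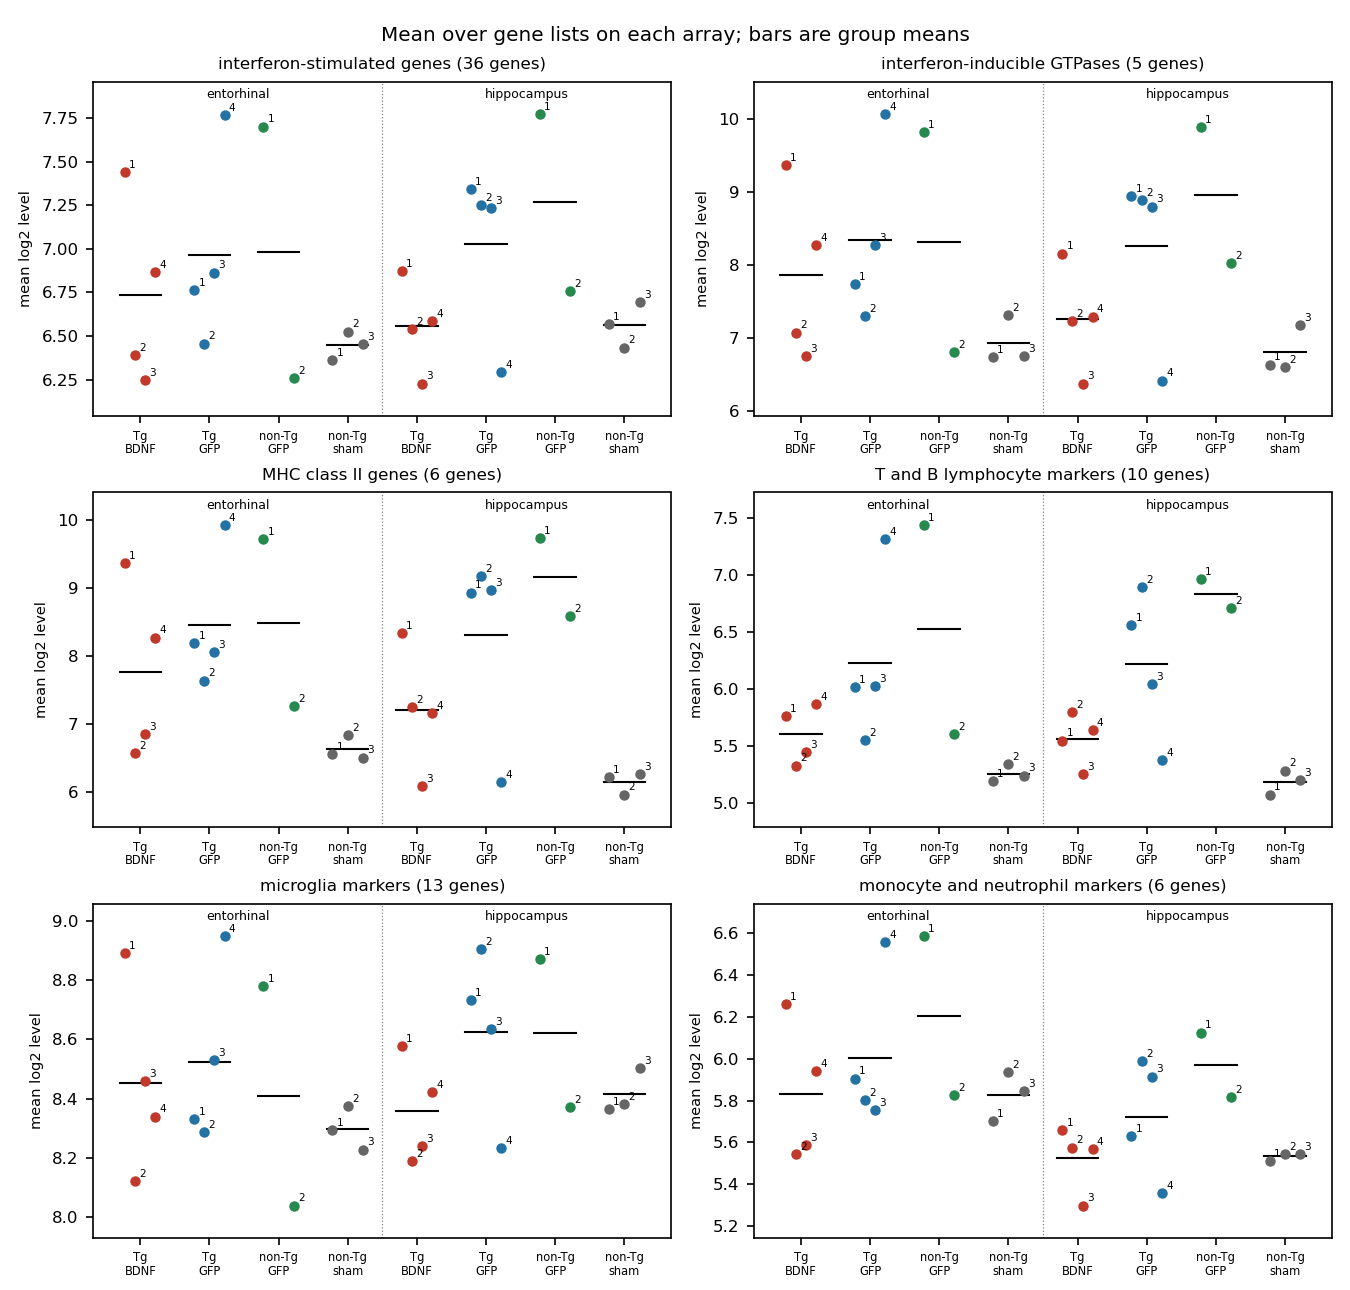
Mean log2 level of gene lists on each array, by group, with entorhinal cortex left and hippocampus right in each panel; bars are group means and small numbers are array numbers. Interferon-stimulated genes, the GTPases among them, MHC class II genes and microglia markers are high on the same arrays, while lymphocyte markers on entorhinal Tg BDNF 1 stay at 5.77.

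Where a member had further probe sets above the filter, these mostly moved the same way. Of 18 such probe sets, the change from sham had the sign of the probe set used in 15 for the entorhinal cortex and in 16 for the hippocampus, and the BDNF minus GFP change in 13 and 14. The probe sets that differed in sign in some of these comparisons were those of Cmpk2, Eif2ak2, Xaf1, Samhd1, Rsad2 and Stat2. For entorhinal BDNF minus GFP, other probe sets gave up to 0.38 for Rsad2 and 0.07 for Samhd1, against -0.04 and -0.31 with those used. The probe set of Gbp2 and those of Trim25, Ifi27 and Ifi35 are named by the manufacturer as able to bind related transcripts, so their values may include paralogs.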

How the data were processed

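The deposited table holds 45101 probe sets on 26 arrays as log2 levels made by the authors with RMA, per the submitters' processing notes, with no missing values and 0 pairs of identical arrays. Probe sets were named through the platform annotation: 34958 had 1 symbol, 932 several and 9211 none, and 34754 of those with 1 symbol were found in the reference gene table. RMA summarises probes after quantile normalization, which fixes the overall distribution of each array, and levels near background are compressed. Precision is limited by the number of arrays.

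Of 18194 genes with a single-symbol probe set, 14941 had a mean above the 30th percentile of all probe sets (4.33) and were tested. Groups came from the sample labels, which call the replicates biological, and p-values measure the spread between these arrays. Each region's 13 arrays were fitted in 4 groups with limma 3.58.1 (lmFit and eBayes, R 4.3.3), and regions were compared in a fit of all 26 arrays in 8 groups. Tests were two-sided, with Benjamini-Hochberg adjustment over all 14941 genes and calls at an adjusted p under 0.05. The injected mean is the mean of the 3 vector group means. The step was tested on simulated data. Tables and figures were made with Python 3.11.15, pandas 2.3.3, numpy 2.4.6 and matplotlib 3.10.9.

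The members and the gene lists were chosen with earlier results of these data known. The members given in full are the 2 with the largest SD over all arrays in each of 7 roles, and further names are called members and the 3 with the smallest p in a comparison without calls. Other members are named where a count or a disagreement between probe sets fell on them, after their values were seen. Pathway genes are those called between regions and the 2 with the smallest p against sham in each group. Alternatives were 2 other filters on low values, averaging all probe sets of each gene, a further quantile normalization, trended and robust eBayes, all arrays in 1 fit, Xist as a covariate, the replicate number as a block, and each array left out in turn. Replicate numbers did not settle which samples belong together. The correlation of deviations between same-numbered arrays ran from -0.487 to 0.479 over 13 pairs across regions, 3 of them over 0.1. These 3 were Tg BDNF 1 and both non-Tg GFP arrays. The 2 non-Tg GFP arrays mirror each other around their mean, so they hold 1 value, 0.470. Within a region the correlation ran from -0.251 to 0.395 over 32 pairs, 9 of them over 0.1.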

Additional observations from a re-analysis of the deposited data

Results flagged for a closer look

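In groups of 4 arrays, an array was singled out where its gap to the nearest other array, divided by the range of the group, passed Dixon's 95% critical value. This happened in 10 of 136 checks, each of 1 gene or 1 mean over members in 1 group. A single check passes by chance about 1 time in 20. The checks share arrays and genes that move together, so their count cannot be compared with that rate. Hippocampal Tg GFP 4 was low in 7 of the 10. It read 6.72 in Igtp, where the other 3 Tg GFP arrays read 9.41 to 9.86. It read 5.43 in Iigp1 (8.23 to 8.54 on the others), 7.60 in Irgm1 (9.35 to 9.66), 5.58 in Oasl2 (7.62 to 7.90) and 4.64 in Usp18 (6.04 to 6.18). The mean of all 36 members was 6.29 there (7.23 to 7.34 on the others) and the mean of the 5 GTPases 6.42 (8.80 to 8.94). Its MHC class II mean was 6.15, against 8.94 to 9.18 on the others. The other 3 flags were high values in the entorhinal cortex. Tg BDNF 1 read 7.36 in Irf8 (6.42 to 6.54 on the others), and Tg GFP 4 read 7.78 in Irf8 (6.42 to 6.53) and 6.78 in Usp18 (5.33 to 5.46).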

How the results depend on the processing

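In all, 702 counts of called members and medians over members were recomputed under the alternatives. Of these, 692 stayed near the count reported or within the allowance for medians, and 10 did not, each with 1 array left out. That allowance was the pooled within-group SD of the members' mean. A median could turn its sign within it, as for entorhinal Tg BDNF minus Tg GFP (-0.18, and 0.03 without Tg GFP 4). The main counts were 0 outside the comparison between regions, so the tally says little about how stable the results are. The medians were not tested, and their sign turned in 21 of 351 recomputed medians, 18 of them with 1 array left out and 3 under other settings, in 7 of the 15 comparisons. Those under other settings were entorhinal Tg GFP minus non-Tg GFP with Xist as a covariate (0.26), and hippocampal Tg BDNF minus sham with Xist (0.07) and with the replicate block (0.03). With 1 array left out, the median change ran from -0.19 to 1.08 for entorhinal non-Tg GFP minus sham, from 0.077 to 1.08 for the same comparison in the hippocampus, from -0.72 to 0.65 for entorhinal Tg GFP minus non-Tg GFP and from -0.68 to 0.24 for the hippocampal one. These extremes came from leaving out non-Tg GFP 1 or 2, after which a lone array is assumed to vary like the other groups. The number of members called for hippocampal injected minus sham ran from 0 to 1, the 1 being Cmpk2 without Tg GFP 4, when 24 genes were called in all, and that between regions from 3 to 7, the 7 without entorhinal non-Tg GFP 1. The median for entorhinal injected minus sham ran from 0.16 to 0.55 and for hippocampal injected minus sham from 0.14 to 0.44, for hippocampal Tg BDNF minus Tg GFP from -0.59 to -0.35, and for the entorhinal one from -0.40 to 0.03. The replicate numbers did not settle a pairing of the samples. With the replicate number as a block, limma called 0 members in the 12 comparisons within regions and 4 between regions, and the median was 0.28 for entorhinal and 0.33 for hippocampal injected minus sham, -0.18 for entorhinal and -0.44 for hippocampal Tg BDNF minus Tg GFP. Across regions 3 of 13 arrays correlated best with their own number, Tg BDNF 1 and both non-Tg GFP arrays, the latter holding 1 value. Members near background, such as Mx1, have compressed changes, and the non-Tg GFP groups hold 2 arrays.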

Other observations

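Xaf1, an interferon-induced binder of the apoptosis inhibitor XIAP, has a second, dimmer probe set whose values fell into a low and a high range. It was highest on the array with the highest member mean in both Tg BDNF and both non-Tg GFP groups, and not in the Tg GFP groups. In the entorhinal cortex it read 8.03, 4.08, 3.97 and 4.33 on the Tg BDNF arrays, 4.27, 6.39, 6.94 and 4.29 on the Tg GFP arrays, 8.15 and 6.07 on the non-Tg GFP arrays, and 4.26, 4.22 and 4.49 on the sham arrays. In the hippocampus it read 6.87, 4.19, 4.10 and 4.28 on the Tg BDNF arrays, 4.20, 4.24, 7.31 and 6.10 on the Tg GFP arrays, 8.14 and 6.55 on the non-Tg GFP arrays, and 4.19, 4.29 and 4.49 on the sham arrays. In each region 5 of 10 injected arrays were over 1 log2 unit above the highest sham array, both non-Tg GFP arrays among them. Entorhinal Tg GFP 4, the array with the highest mean of all members in that region, stayed in the low range at 4.29, and hippocampal Tg GFP 4, low in most members, stood in the high range at 6.10. The change for injected minus sham was 1.57 in both regions with this probe set, against 0.23 in the entorhinal cortex and -0.06 in the hippocampus with the brighter one. This probe set was chosen after its values were seen, and the source of the disagreement was not tested.

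For Eif2ak2, the probe set used gave -0.14 in the entorhinal cortex and -0.11 in the hippocampus for injected minus sham, and a second one above the filter gave 0.09 and 0.14. For Cmpk2, the second probe set gave -0.11 and 0.02, against 0.24 and 0.40 with the one used.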
